A study of Mus musculus with 2 samples.

Results

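Dense clusters of distal accessible sites were examined in embryonic facial prominence, the embryonic tissue that forms the face. A distal site was a DNase-seq peak found in both replicates and lying over 1 kb from every annotated transcription start site. Neighbouring distal sites were chained when the gap between them was at most 5 kb, and a chain of at least 6 sites was called a cluster. Of 84335 chains, 1449 were clusters. They held 10581 of 140271 distal sites (7.54%). The peaks of both replicates chose these regions, so the number of sites and the density of a cluster are descriptions and carry no test.

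In DNase-seq, nuclei are treated with DNase I, which cuts open chromatin, and the cut fragments are sequenced. The tissue came from B6NCrl mouse embryos of both sexes, pooled, at embryonic day 14.5, and was profiled in 2 biological replicates from different tissue samples that carry a common donor record. There was no treatment and no second tissue, so comparisons were made between the replicates, between clusters and with the remaining distal sites. Since the single group had 2 replicates, differences between them carry no p-value. The lists held 304489 peaks and 278129 hotspots in replicate 1 and 218221 peaks and 198656 hotspots in replicate 2. A peak is a 150 bp window of high cutting, and a hotspot is a broader region of raised cutting. Read depth is not given in the sources used here, so a region without a call is not shown to be closed. As a check of the tissue, shared sites within 500 bp of a start site were counted for marker genes. They were present at 11 of 11 genes marking facial mesenchyme, 5 of 5 marking epithelium and 3 of 3 marking muscle. For neurons the count was 3 of 3 and for other organs 1 of 5. The same held for 67.5% of all protein-coding genes, so counts of so few genes are a weak check.

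Enhancers are stretches of DNA that bind transcription factors and raise the transcription of genes at a distance. Many genes that control development are surrounded by several enhancers with overlapping activity, and such groups have been described as stretch enhancers, super-enhancers or locus control regions. In the face, mesenchyme derived from the neural crest builds bone, cartilage and connective tissue under an epithelium that forms skin, mouth lining and teeth. DNase-seq shows where DNA is accessible. It does not show whether a site is an enhancer, and the gene nearest to a site is not shown to be the gene it acts on.

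The sequences of individual sites show what the clusters are made of. The first set gives the 150 bp at the centre of the highest-ranked site outside exons in 7 clusters. These are the cluster with most sites (Rara), another large cluster next to a craniofacial transcription factor (Twist1), a cluster among the 5 farthest from any coding start site (Sox9), a cluster on tested enhancers (Npvf), the cluster with the highest hotspot cover (Spaca6), and the clusters with the largest excess of cover in replicate 1 (Bmp7) and in replicate 2 (Sp9). Capitals mark matches on either strand to the transcription factor motifs searched. Sequences are from the plus strand of the RefSeq GRCm38.p6 assembly, the coordinates of mm10.
Rara site, chr11:98925946-98926095: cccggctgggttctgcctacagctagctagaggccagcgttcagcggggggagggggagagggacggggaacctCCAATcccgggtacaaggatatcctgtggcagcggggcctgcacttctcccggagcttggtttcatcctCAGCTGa
Twist1 site, chr12:33966526-33966675: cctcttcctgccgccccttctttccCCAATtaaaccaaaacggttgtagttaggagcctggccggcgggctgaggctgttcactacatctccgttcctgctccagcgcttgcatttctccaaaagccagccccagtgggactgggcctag
Sox9 site, chr11:111944426-111944575: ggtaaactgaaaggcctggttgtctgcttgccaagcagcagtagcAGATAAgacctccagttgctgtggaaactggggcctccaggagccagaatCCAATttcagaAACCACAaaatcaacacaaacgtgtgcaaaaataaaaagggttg
Npvf site, chr6:50981796-50981945: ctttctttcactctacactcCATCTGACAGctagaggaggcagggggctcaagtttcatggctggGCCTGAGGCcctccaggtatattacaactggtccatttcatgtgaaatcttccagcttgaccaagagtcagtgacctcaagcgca
Spaca6 site, chr17:17826916-17827065: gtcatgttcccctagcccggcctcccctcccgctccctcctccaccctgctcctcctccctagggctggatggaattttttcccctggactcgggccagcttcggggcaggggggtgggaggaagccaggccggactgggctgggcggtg
Bmp7 site, chr2:172934186-172934335: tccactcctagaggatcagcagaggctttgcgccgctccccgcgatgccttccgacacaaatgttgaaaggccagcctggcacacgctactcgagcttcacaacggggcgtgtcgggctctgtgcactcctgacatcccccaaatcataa
Sp9 site, chr2:73278596-73278745: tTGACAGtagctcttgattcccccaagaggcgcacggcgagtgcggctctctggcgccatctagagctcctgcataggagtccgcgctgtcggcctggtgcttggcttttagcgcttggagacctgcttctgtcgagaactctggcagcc

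The Rara window held a CCAAT box, which NF-Y binds, and an E-box (CAGCTG), and the Twist1 window a CCAAT box. The Sox9 window held GATA, CCAAT and RUNX motifs. The Npvf window held an E-box (CATCTG) that overlapped a MEIS motif (TGACAG), and an AP-2 motif (GCCNNNGGC), the letters bound by AP-2 factors of the neural crest and ectoderm. The Sp9 window held a MEIS motif, and the Spaca6 and Bmp7 windows held none of the motifs searched. A match is a run of letters and does not show binding.

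A second set was chosen after its values were seen, because it marks clusters of another kind. The first line is a site in the cluster with most tRNA genes, with the tRNA gene in capitals. The other lines are a pair of sites in the cluster over Firre, a gene for a long non-coding RNA on the X chromosome, with the longest run that both share (59 bases) in capitals.
tRNA site, chr19:12012246-12012395: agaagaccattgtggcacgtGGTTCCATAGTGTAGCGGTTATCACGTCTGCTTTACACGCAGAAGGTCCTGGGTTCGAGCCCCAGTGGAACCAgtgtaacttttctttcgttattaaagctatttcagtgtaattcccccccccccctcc
Firre site 1, chrX:50605636-50605785: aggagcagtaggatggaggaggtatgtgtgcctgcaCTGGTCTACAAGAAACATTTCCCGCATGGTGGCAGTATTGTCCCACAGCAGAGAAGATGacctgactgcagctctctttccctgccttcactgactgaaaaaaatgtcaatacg
Firre site 2, chrX:50614996-50615145: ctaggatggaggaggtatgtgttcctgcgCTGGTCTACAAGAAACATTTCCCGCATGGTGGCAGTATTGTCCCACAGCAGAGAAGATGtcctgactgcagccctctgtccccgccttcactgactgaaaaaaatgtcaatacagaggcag

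The peak scores at these sites are the authors' own values, whole numbers from 1 to 150 and they served here to rank peaks of the same list. The Rara site scored 120 in replicate 1 and 102 in replicate 2, and the Sp9 site 113 and 115. The far Sox9 site scored 71 and 54, which stand at 77.0% and 74.3% of their lists by rank. The Npvf site, the lowest of the other 6 in replicate 2, stood at 91.1% and 80.7%. Each window was chosen for its rank within its cluster, so high ranks here are no finding.

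Clusters were the upper end of a steady decline in chain size. There were 53544 lone sites, 1401 chains of 5 sites, 666 of 6, 356 of 7 and 148 of 10 or more, and the largest held 25. The median cluster held 7 sites over 11.03 kb, with spans from 2.09 to 39.67 kb, and all clusters together took up 16.8 Mb or 0.615% of the main chromosomes. Within a cluster the median gap between neighbouring sites was 1190 bp. On either side of the size limit the values were close. Chains of 5 sites had a median span of 7.73 kb and a median site score of 67 in replicate 1 and 42 in replicate 2, and chains of 6 had 9.32 kb, 69 and 44. The number of clusters rests on these limits and on the need for both replicates. It was 584 with gaps of at most 3000 bp, 4204 with gaps of at most 10000 bp, 6845 from the peaks of replicate 1 alone and 2595 from those of replicate 2 alone.

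**Figure D1:**
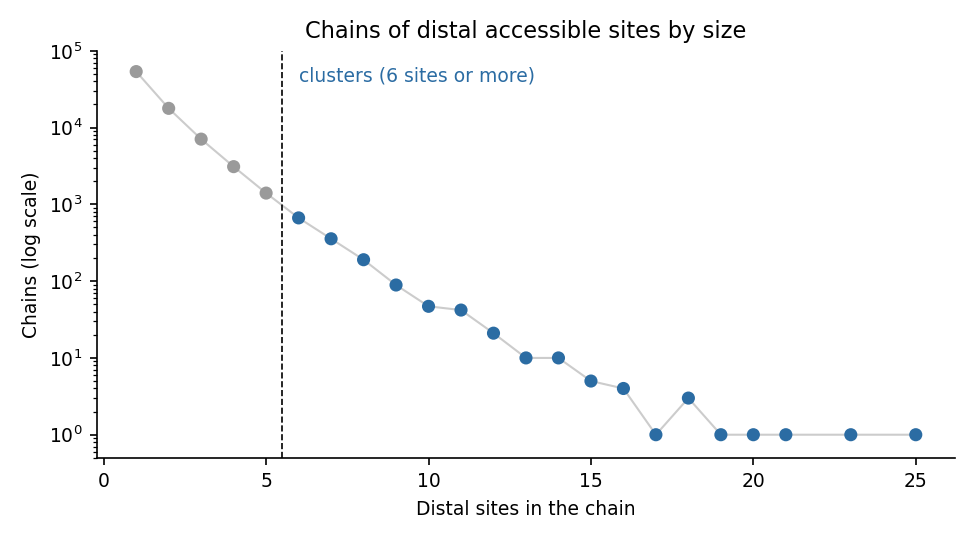
Number of chains (log scale) against the number of distal sites in the chain, with clusters in blue to the right of the dashed line. Counts go from 53544 lone sites through 666 chains of 6 to a single chain of 25, with no break at the limit.

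Sites in clusters were stronger than lone sites. The median score was 70 in replicate 1 and 45 in replicate 2 for sites in clusters, 62 and 39 in chains of 2 to 5, and 55 and 35 for lone sites. Clusters held 22.8% of the 1406 distal sites in the top 1% by mean rank, against 7.54% of all distal sites. Peaks that the other replicate lacked were fewer there, although the rule asks for shared peaks and so leads the same way. Of the peaks lying in cluster spans, 14.3% in replicate 1 and 9.86% in replicate 2 were not shared, against 40.8% and 16.4% of all peaks. In bulk tissue, a site that is open in fewer cells and a site that is less accessible in each cell cannot be told apart.

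Hotspot cover, the percent of a cluster's span under hotspots, had a median of 24.4% in replicate 1 and 19.7% in replicate 2. The quartiles were 17.7% and 34.6% in the former and 14.4% and 29.5% in the latter. Cover and peak counts were taken over the whole span. Where a cluster spans a start site, they include hotspots and peaks near that start that are not distal. In all, cluster spans took in 628 shared sites within 1 kb of a start site. Hotspots covered 3.18% and 2.19% of the main chromosomes. Hotspots come from the same reads as the peaks, so this difference is a description too. Cover did not rise steadily with chain size. Lone sites, whose span is the site itself, had a median of 100% in both replicates. Chains of 2 to 5 sites had 26.0% and 20.7%, above the medians of clusters. Chains of 5 had medians of 22.8% and 18.2%, and clusters of 10 or more sites 29.9% and 25.5%. Cover was higher in replicate 1 for 1128 clusters and in replicate 2 for 320, in the direction of the longer hotspot list. Across the 1449 clusters, which share both libraries, the replicates' covers had a Pearson correlation of 0.877 and a Spearman correlation of 0.858. Cover of at least 50% in both replicates was found for 89 clusters. A hotspot of at least 1000 bp in both replicates was present in 297 clusters (20.5%), against 1.59% of all chains, most of which are shorter than that.

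**Figure D2:**
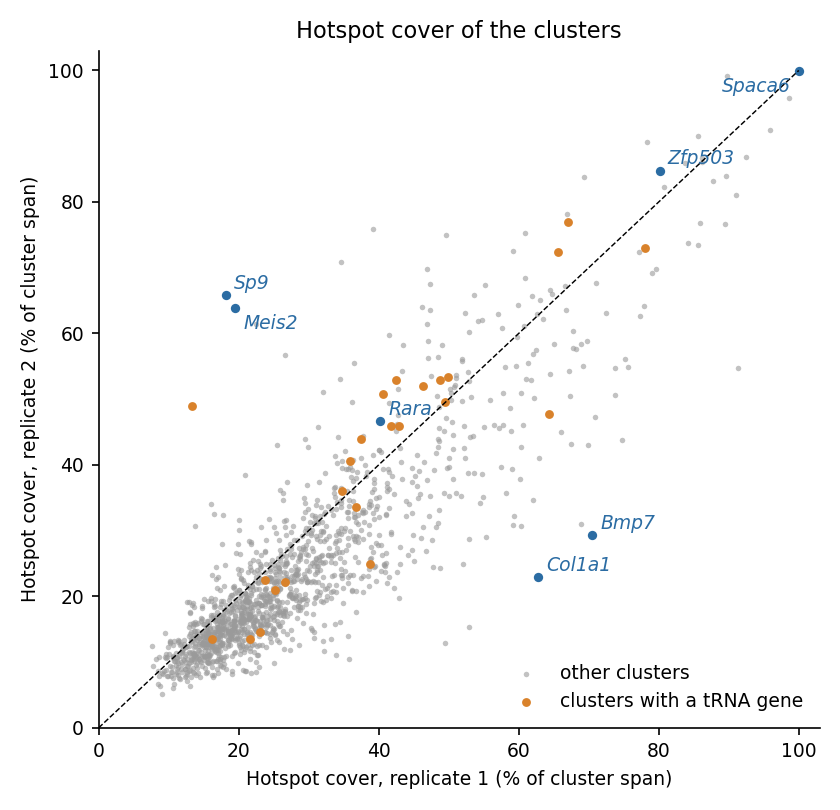
Hotspot cover of each of the 1449 clusters in replicate 1 (horizontal) and replicate 2 (vertical), as percent of the cluster's span, with clusters holding a tRNA gene in orange and 7 named clusters in blue. Most points lie under the dashed line of equal cover, Sp9 and Meis2 lie far above it, and Bmp7 and Col1a1 far below it.

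The cluster with most sites, 25 over 27.25 kb at chr11:98917736-98944985, overlapped Cdc6 and spanned the start of Rara. Rara encodes a nuclear receptor for retinoic acid. Its cover was 40.2% in replicate 1 and 46.7% in replicate 2, and its site scores ran from 46 to 125 and from 26 to 102. Sites lay in exons (5), in introns (17) and outside protein-coding genes (3), so it was a cluster mostly within genes.

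Twist1, a bHLH factor of cranial mesenchyme, had 18 sites at chr12:33952976-33983205, all outside exons and introns of protein-coding genes, with cover of 21.6% and 25.1%. The Twist1 cluster was longer than that of Rara (30.23 against 27.25 kb) but less covered in both replicates. Zfp503, a zinc finger gene, had 18 sites in 14.15 kb at chr14:21981576-21995725, with cover of 80.1% and 84.7%. Id3, which encodes an inhibitor of bHLH factors, had 16 sites and cover of 47.4% and 53.5%. Eya1, a cofactor and phosphatase gene of ear and face development, had a cluster of 16 sites 194.5 kb upstream, with no gene in its span and cover of 34.7% and 34.2%.

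Chromatin regulators were also among the 20 clusters with most sites. Kdm6b, a histone H3 lysine demethylase, had 15 sites with the highest median score of these clusters in both replicates (100 and 93) and cover of 75.2% and 56.1%. Cbx8, a Polycomb subunit, had 18 sites with cover of 31.1% and 25.8%, and Bahcc1 had 20 sites with cover of 54.1% and 61.8%. Tnrc18 had 16 sites and cover of 85.8% and 76.8%. Others were nearest to Gadd45b, Itgb5, Rgmb, Faap20, Dnajb12 and Cavin1, with 14 or 15 sites each. The nearest gene was not always the gene that held the sites. A cluster of 19 sites at chr8:120276116-120309565 lay wholly in introns of Gse1, while its nearest coding start site belonged to Fam92b, 115.4 kb away. The cluster of 23 sites at chr12:86767976-86807645 touched no gene, lay 53.4 kb from Lrrc74a and had cover of 25.7% and 19.2%. Lrrc74a had no shared promoter site.

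**Figure D3:**
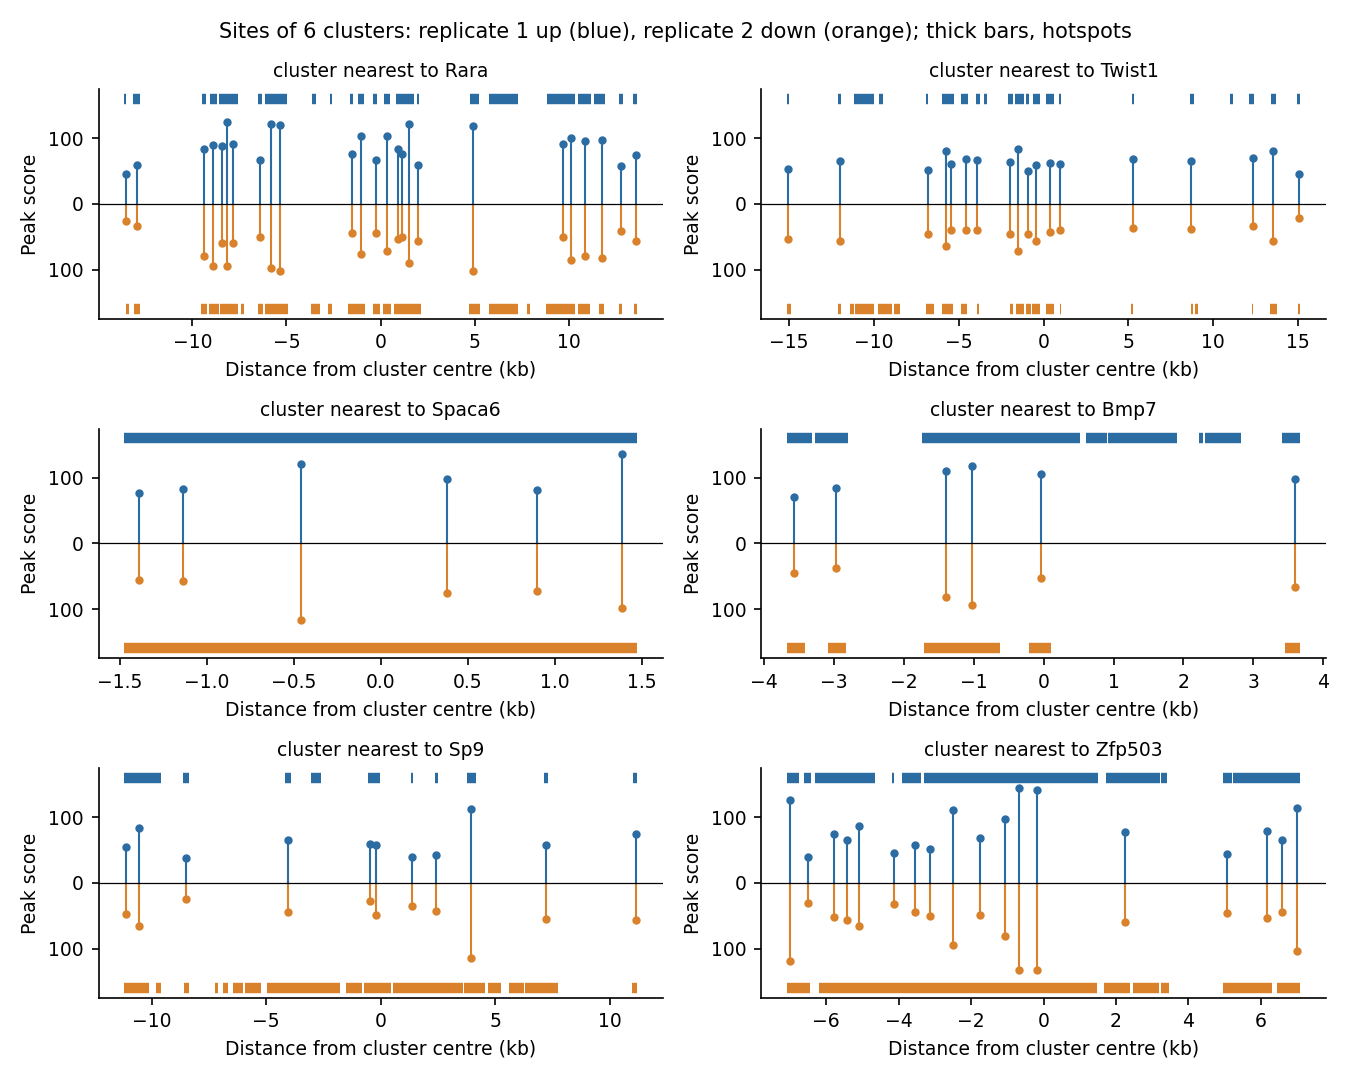
Score of each distal site in replicate 1 (blue, upward) and replicate 2 (orange, downward) against distance from the cluster centre in kb for 6 clusters, with hotspots as thick bars. Hotspots fill the Spaca6 cluster and cover most of the Zfp503 cluster in both replicates, are broken in Rara and Twist1, and differ in extent between replicates at Bmp7 and Sp9.

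The 10 clusters with the highest hotspot cover spanned 2.09 to 8.75 kb, less than the median cluster. The cluster at chr17:17825976-17828925 was covered to 100% in replicate 1 and 99.9% in replicate 2, with 6 sites. Its nearest coding start site was that of Spaca6, a sperm membrane gene, and it ended 1.26 kb before the start of Mir99b, the first of the microRNA genes Mir99b, Mirlet7e and Mir125a. Clusters in Cdk6, a kinase of the cell cycle (98.6% and 95.7%), and Hpse2, a heparanase relative (89.7% and 99.2%), were also nearly filled. Id2, another inhibitor of bHLH factors (92.4% and 86.8%), the Hedgehog co-receptor gene Gas1 (91.1% and 81.1%), the actin-bundling gene Fscn1 (85.6% and 90.0%) and the hair follicle gene Tchh (86.2% and 86.1%) followed. The spans of the Id2 and Gas1 clusters also took in 3 and 4 shared sites within 1 kb of a start site. All 8 sites of the Tchh cluster lay in exons, and the Tchh promoter had no shared site. The remaining clusters of the 10 were nearest to Zfp608, Klrb1b and Gm21887. That of Zfp608 (95.9% and 91.0%) lay 558.0 kb upstream of its start and that of Klrb1b 12.6 kb upstream, and neither touched a protein-coding gene. The clusters in Cdk6, Hpse2 and Fscn1 held 6 sites in 2.09 to 2.75 kb and were also among the 10 with most sites per kb. The same 10 included clusters in Mpdz, Tnrc6b and Pcdh17, of 6 or 7 sites, with cover from 51.1% to 89.5%. All 7 Pcdh17 sites lay in exons. Sox4, a SoxC factor of progenitors and neurons, had the most sites of the named dense clusters on autosomes, 9 in 4.05 kb. Its cover was 68.9% and 58.4%, and 6 of the 9 sites lay in exons.

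By mean rank of a single site, the leading clusters were nearest to Grasp, Igf2bp3, Cirbp, Midn and Slc38a10. The Grasp cluster, 12 sites at chr15:101228136-101248245, reached scores of 149 and 137 with cover of only 27.9% and 18.4%. The Cirbp cluster reached 143 and 140 with cover of 69.9% and 43.1%. A very strong site could therefore stand in a cluster with little or with much cover.

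Some clusters differed between the replicates well beyond the general difference in cover. Cover was over 20 percentage points higher in replicate 1 at 32 clusters and in replicate 2 at 10. Within Bmp7, which encodes a bone morphogenetic protein, the cluster had 70.5% cover and 13 peaks in replicate 1, and 29.3% and 6 peaks in replicate 2. In a cluster that spanned the start of Col1a1, a main collagen of bone, the values were 62.8% and 22 peaks against 22.9% and 9 peaks. Its middle lay 1.03 kb upstream of that start, and 3 of its 7 sites lay in introns. The span also took in 2 shared sites within 1 kb of a start site. Clusters in Phldb1 (68.8% and 31.1%), in introns of Ddc with Fignl1 as the nearest gene (52.9% and 15.3%) and downstream of Zfp608 (49.5% and 12.9%) were the others of the 5 with the largest excess in replicate 1.

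The shared sites of the Bmp7 cluster, all in introns, scored 71, 84, 110, 118, 105 and 98 in replicate 1 in genome order. In replicate 2 they scored 45, 37, 81, 94, 53 and 66. The site with 118 and 94 was thus the strongest in both replicates, and it is the one whose sequence is shown above. A pair of the 6 sites lay on an enhancer recorded in RefSeq at chr2:172933771-172934250, with activity in eye, limb, Wolffian duct and forebrain.

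In the other direction, the 5 clusters were nearest to Sp9, Meis2, Junb, Tbx18 and Skida1. The Sp9 cluster, which includes a gene for an Sp-family factor of ectoderm and neurons, had 18.1% cover and 13 peaks in replicate 1, and 65.8% and 37 peaks in replicate 2. Of 4 clusters nearest to Meis2, a homeobox gene of cranial mesenchyme, the one at chr2:115852736-115859605 had 19.5% and 63.8%, the one 6.89 kb from its start was also more covered in replicate 2 (16.1% and 34.1%), and those at 173.7 and 35.4 kb differed by under 1 point. Junb (22.5% and 61.5%), Tbx18 (39.1% and 75.9%) and Skida1 (34.6% and 70.8%) had the other clusters. The Sp9, Junb, Tbx18 and Skida1 clusters lay within 4 kb of the start of those genes. Each spanned a coding start site, and their spans took in 1, 1, 9 and 4 shared sites within 1 kb of a start site. Each replicate is a single library, so the tissue sample and the library cannot be told apart.

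Clusters stood in varied positions relative to genes. Of the 1449, 201 (13.9%) spanned a protein-coding start site, 665 (45.9%) lay in or touched a protein-coding gene without spanning such a start, and 583 (40.2%) touched none. In 476 clusters every site lay in introns of protein-coding genes. The cluster's middle lay inside the nearest gene in 581 cases (40.1%), upstream in 534 and downstream in 334. The share inside was 36.6% over all chains and 36.2% for lone sites, so clusters were only slightly higher. The median distance to the nearest coding start was 31.5 kb, against 51.4 kb for lone sites. The 5 farthest were nearest to Epha4 (982.1 kb), Sox9 (829.0 kb), Lrmda (793.2 kb), Gramd3 (704.7 kb) and Sugct (661.2 kb). Cover was 16.4% and 7.79% in the far Sox9 cluster and 25.6% and 15.7% in that of Epha4. The cluster far upstream of Gramd3 had more, 64.5% and 53.8%.

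Chromosome 11 had the most clusters, 123, and the highest density, 10.1 per 10 Mb, against 5.32 over all main chromosomes. It also had the most distal sites per Mb (71.1). Chromosome X had 13 clusters, 0.760 per 10 Mb, and 16.6 distal sites per Mb. Clusters also lay near each other. Another cluster was found within 100 kb of 488 clusters (33.7%), and 58 runs held 3 or more clusters with such gaps. The longest run by number, 7 clusters with 56 sites at chr6:50937196-51216685, lay between Npvf and Nfe2l3. A run of 6 clusters with 52 sites extended over 423 kb around Irf2bp2, and a run of 5 with 52 sites over 177.1 kb around Bahcc1, Slc38a10 and Actg1.

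The nearest genes numbered 1223 of 21938 protein-coding genes (5.57%). Most of them, 1052, were nearest to a single cluster, 143 to a pair, and 28 to 3 or more. Peaks of replicate 1 alone gave 4146 nearest genes and those of replicate 2 alone 2023. Of the 1223 genes, 1085 (88.7%) had a promoter with a shared site, against 67.5% of all protein-coding genes and 77.2% of those nearest to any distal site. A gene with more sequence nearer to its start than to that of any other coding gene has more room for clusters. This territory had a median of 143.2 kb for the nearest genes and 47.0 kb for all. The share of genes nearest to a cluster went from 0.766% in the 25% of genes with the shortest territories to 12.9% in the 25% with the longest.

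Zfp36l1, Zfp608 and Zfhx3 each had 7 clusters, the most of any gene. Zfp36l1 encodes a protein that promotes decay of AU-rich mRNAs, and its clusters held 56 sites, from 362.1 kb downstream to 30.8 kb upstream of its start. The cluster at the gene itself had cover of 69.7% and 58.8%, the other 6 between 8.17% and 35.6% in either replicate. The span at the gene also took in 5 shared sites within 1 kb of a start site. The clusters 362.1 and 332.4 kb downstream lay in introns of Rad51b. Zfhx3, a homeodomain and zinc finger factor, had 49 sites in clusters and cover of at most 30.8%.

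Npvf, which encodes a neuropeptide precursor, was nearest to 5 clusters with 42 sites, although its own promoter had no shared site. Arid5b, a chromatin regulator of mesenchyme, had 5 clusters, and those at its start (85.6% and 73.5%) and 75.9 kb upstream (71.1% and 67.7%) had higher cover than the other 3 in both replicates. The span of the cluster at the Arid5b start also took in 4 shared sites within 1 kb of a start site. Nfib, a nuclear factor I gene, had 36 sites in 5 clusters. Sox9, the master factor of cartilage, had 35 sites in 5 clusters from 829.0 kb upstream to 235.8 kb downstream. The cluster centred next to the start of Sox9 had the highest cover of these (35.7% and 33.8%), and its span also took in 4 shared sites within 1 kb of a start site. Tns1 also had 5 clusters, and Nfe2l3, Tcf7l2, Sulf2 and Meis2 had 4 each. Irf2bp2, Gadd45g, Ackr3, Gse1, Tle3, Tln2 and Fyn had 3 each, with 22 to 32 sites.

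Genes of the face and of its signals were compared through 21 lists. Of 574 matched genes, 140 were nearest to at least 1 cluster. Over all protein-coding genes the share was 5.57%. Genes on the lists often have long territories, so the same count is given for those in the longest 25% (above 110.8 kb), where 98 of 284 listed genes were nearest to a cluster (34.5%) and 12.9% of all protein-coding genes were. Transcription factors of mesenchyme had the highest share of all lists, 26 of 64 (40.6%). In the longest 25% they had 23 of 52 (44.23%), and genes of Hippo, Notch and the cytoskeleton stood above them with 6 of 13 (46.15%). Nfib and Meis2 had most sites in clusters, and Twist1, Six2, Prrx1, Dlx2, Dlx3, Dlx5, Msx2, Pitx1 and Twist2 were also nearest to 1 cluster each.

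Among signalling lists, Hedgehog and retinoic acid genes had 11 of 30, led by Rara (33 sites in 2 clusters), Gas1 (15 in 2) and Cyp26b1 (13 in 2), which encodes an enzyme that degrades retinoic acid. The Cyp26b1 cluster 49.3 kb upstream of its start lay in introns of Exoc6b. For BMP and TGF-beta the count was 11 of 33, led by the inhibitory Smad gene Smad6 (20 sites in 3 clusters), Id3 and the ligand gene Tgfb2 (13 in 2). FGF genes had 9 of 28, led by the feedback inhibitor Spry2 (23 sites in 2 clusters), the ligand Fgf1 and the receptor Fgfr2. Both Fgf1 clusters lay in introns of Arhgap26. The cluster at the start of Spry2 had cover of 61.9% and 65.7%, and its span also took in 4 shared sites within 1 kb of a start site. For Wnt the count was 12 of 40, led by the nuclear effector Tcf7l2 (33 sites in 4 clusters), the secreted inhibitor Sfrp2 and the co-receptor Lrp4. Genes of Hippo, Notch and the cytoskeleton had 9 of 23, led by Jag1, Vgll4 and Rbpj. The shares of these lists ran from 30.0% for Wnt to 39.1% for Hippo, Notch and the cytoskeleton, against 5.57% of all protein-coding genes. Across these lists the nearest genes included ligands, receptors, effectors and inhibitors.

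Lists of differentiated tissues ranged more widely. Cartilage had 7 of 24, led by Sox9, Col2a1 and Prg4, while bone had 4 of 22, namely Col1a1, Col1a2, Dlx5 and Sparc. Connective tissue matrix and adhesion genes had 10 of 32, led by Tpm1, Cdh11 and Col6a3. Epithelial genes had 9 of 35, led by Cdh1, Tfap2c and Krt8, and tooth genes 2 of 20, Dlx3 and Bcl11b. For skeletal muscle the count was 7 of 26, including Mef2c and Mef2d, and for neurons 8 of 31, led by Ebf3, Sox4 and Rbfox3. Endothelium had 4 of 25, pericytes and smooth muscle 3 of 14, blood 1 of 24 (Runx1) and glia and melanocytes 1 of 19 (Dct). The shares for blood (4.17%) and for glia and melanocytes (5.26%) were near the 5.57% of all protein-coding genes. In the longest 25% of territories all protein-coding genes had 12.9%. There bone had 1 of 7, tooth 1 of 8, endothelium 1 of 9 and glia and melanocytes 1 of 11, all near that share. Cartilage (5 of 12), connective tissue (8 of 24), neurons (8 of 24), skeletal muscle (3 of 11) and epithelium (3 of 14) stood above it. Blood and pericytes with smooth muscle had 1 of 3 each. The Dct cluster lay in introns of Gpc6.

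Immediate early genes had 7 of 22, with Zfp36l1, Ier2 and Fos first. The Ier2 cluster of 9 sites lay in introns of Cacna1a. Genes of housekeeping functions had 5 of 20, and their median territory of 24.2 kb was short. They included Gapdh (12 sites), Actb (8), Eef1a1 and Ppia. Of the 12 Gapdh sites, 9 lay in introns and 3 in exons, in a span that overlapped Gapdh and Iffo1. No Hox gene of 38 was nearest to a cluster. Hox genes stand close together, with a median territory of 11.5 kb and none in the longest 25%. Genes of organs outside the face had 0 of 28, beside 5.57% of all protein-coding genes, and 28 genes are too few to tell these shares apart.

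**Figure D4:**
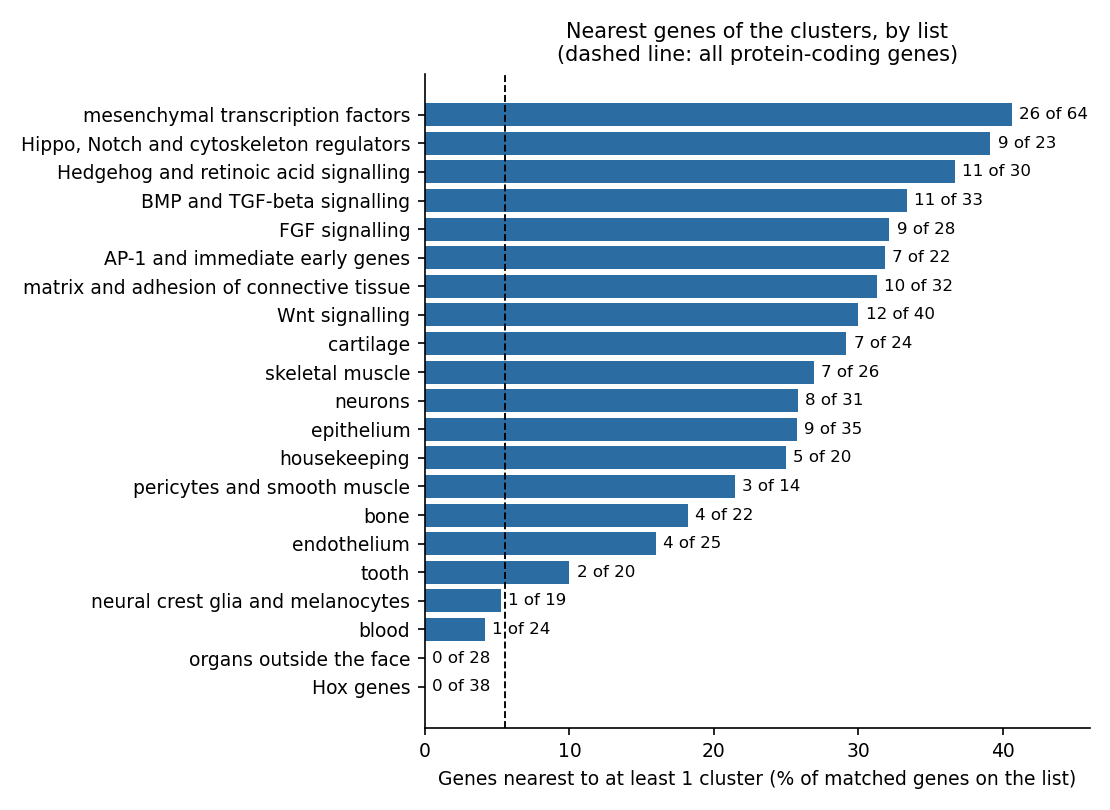
Percent of the matched genes on each list that were the nearest coding gene of at least 1 cluster, with the counts beside the bars and a dashed line at 5.57%, the share of all protein-coding genes. Mesenchymal transcription factors stand highest at 26 of 64, and the Hox and outside-organ lists at 0.

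Enhancers recorded in RefSeq, largely VISTA elements tested in transgenic mouse embryos, gave an independent annotation. The age of those embryos was not matched to embryonic day 14.5. Sites in clusters lay on such an element in 1.45% of cases, against 0.616% of all distal sites and 0.245% of lone sites. The 67 enhancers under cluster sites lay in 59 clusters, which were named for this reason and thus after their values were seen. Activity in facial mesenchyme, branchial arch or nose was recorded for 21 of 58 VISTA enhancers in clusters (36.2%), 29.7% of 296 in chains of 2 to 5, 24.5% of 102 at lone sites and 16.5% of 164 that held no distal site. VISTA elements were chosen for testing by others, partly by conservation or by chromatin marks, so these shares are not those of a random sample. Of the VISTA enhancers in clusters, 16 were active in limb, 14 in heart, 13 in hindbrain, 12 in forebrain and 8 in somite. Taken singly, facial tissues had fewer than limb or heart, with 11 in branchial arch, 10 in facial mesenchyme and 6 in nose. An enhancer can be active in several tissues. The share of each tissue over all VISTA elements was not counted, so this order is not a result about clusters.

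A cluster of 7 sites at chr6:50979876-50986745, 328.9 kb upstream of Npvf, held a pair of enhancers active in facial mesenchyme. Staining there was seen in 6 of 8 embryos for mm405 and 5 of 5 for mm406. The cluster nearest to Abca4 lay on mm435, active in nose and facial mesenchyme in 14 of 14 embryos. The cluster of 13 sites nearest to Sept11 lay on mm39 (nose in 14 of 14), and that of Calml3 on mm41 (branchial arch in 9 of 9). One cluster downstream of Zfp36l1 lay on mm1359 (branchial arch in 8 of 9), and one 235.8 kb downstream of Sox9 on mm636 (branchial arch in 3 and nose in 4 of 9). Near Hhat, which encodes the enzyme that attaches palmitate to Hedgehog ligands, a cluster of 11 sites lay on mm646. That element was active in facial mesenchyme and nose in 10 of 13 embryos. Most of these facial elements were also active elsewhere, mm406 in limb (5 of 5), mm435 in forebrain (14 of 14) and mm636 in limb (6 of 9). For mm646, limb had 8 and forebrain 6 of 13, for mm405 the trigeminal ganglion 5 of 8, and for mm1359 heart 4 of 9. No other tissue was recorded for mm39 and mm41. A pair of neighbouring clusters with Mrpl23 as the nearest coding gene lay on 8 recorded enhancers, of which 6, named CS, are known as enhancers of the imprinted genes H19 and Igf2. The nearest coding gene was therefore not the known target there.

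A small group of clusters held tRNA genes, which RNA polymerase III transcribes from promoters inside the gene. The start site annotation used for the rule holds no tRNA genes, so sites on them counted as distal. Of 403 tRNA genes in RefSeq, 94 (23.3%) lay in 24 clusters, which held 80 of the 171 distal sites on tRNA genes. That is 0.756% of cluster sites against 0.122% of all distal sites. The 24 clusters had a median cover of 39.7% in replicate 1 and 45.9% in replicate 2, and the others 24.1% and 19.6%, so the median was higher in replicate 2 for tRNA clusters and higher in replicate 1 for the others. The 80 sites had median scores of 80 and 76.5.

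There were 7 clusters with tRNA genes on chromosome 13 and 4 on chromosome 11. The cluster with most tRNA genes, 8 in a span with 12 sites of which 6 lay on them, stood next to the olfactory receptor gene Olfr1423 on chromosome 19 with cover of 46.3% and 51.9%, and it is the source of the tRNA sequence shown above. Those near Aurkb on chromosome 11 and Trim27 on chromosome 13 held 7 each. Near Btn2a2 on chromosome 13, a cluster with 6 tRNA genes had 10 peaks and 13.3% cover in replicate 1, and 22 peaks and 49.0% in replicate 2. Counting tRNA genes as start sites, a choice made after the data were seen, left 1427 clusters, of which 1 held a tRNA gene.

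In 4 clusters, some sites were near copies of each other, with at least 50% of their 12-letter words in common. They held 10 such sites and all lay on the sex chromosomes. The Firre cluster, 17 sites at chrX:50590796-50623165, had 3 such sites, and cover of 13.1% and 14.2%. Its nearest coding start, of Olfr1324, was 178.5 kb away. Firre is known for local repeats that bind CTCF and for its role in the arrangement of the X chromosome in the nucleus. The shared run of the pair shown above was 59 bases, and the sites scored 67 and 49, and 70 and 54. The other clusters lay at the end of X beside Gm21887 and in Mid1, a gene that spans the pseudoautosomal boundary, and at the end of Y beside Gm21860. Scores went down to 10 and 11 in the cluster downstream of Gm21887, and to 38 and 22 in that on Y. How the authors placed reads that match several copies is not known here, and its part in these calls was not tested.

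The sequence of the sites was not used by the rule. Sites in clusters had a median GC content of 52.0% over 150 bp, against 47.3% for lone sites and 49.3% in chains of 2 to 5. Windows resembling a CpG island (at least 55% GC and at least 0.65 of the expected CpG) made up 5.27% of cluster sites, 1.31% of lone sites and 9.65% of sites in clusters of 10 or more. A CG dinucleotide was present in 91.1% and 80.7%. Repeat-masked sequence took up similar shares, 8.89% and 9.32%.

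Motif shares differed between clusters and lone sites in both directions. The AP-2 motif was found in 7.37% of cluster sites and 4.99% of lone sites (5.65% of all distal sites). SP/KLF (GGGGCGGGG) was found in 1.87%, 0.764% and 1.10%, and ETS (CCGGAAG) in 1.50%, 0.768% and 0.992%. Several AT-rich motifs were lower in clusters. SOX (AACAAT) was found in 5.88%, 7.93% and 7.32%, homeobox (TAATTA) in 3.14%, 4.55% and 4.18%, and RUNX (AACCACA) in 4.32%, 5.92% and 5.49%. The MEF2 motif, also AT-rich, went the other way, with 0.236%, 0.190% and 0.194%. Motifs were searched on both strands, and the CG dinucleotide lies within the SP/KLF and ETS motifs.

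Among windows of 50 to under 60% GC, 5040 in clusters and 18147 of lone sites, the differences for AP-2 and SOX shrank, and that for homeobox changed sign. AP-2 was found in 7.76% and 7.38%, homeobox in 2.48% and 2.30%, and SOX in 4.31% and 4.50%. Other motifs behaved differently. ETS stayed higher in clusters within the band, at 1.65% against 1.23%, and so did SP/KLF, at 1.57% against 1.12%. The CTCF motif was lower in clusters both in all windows, 1.35% against 2.08%, and within the band, 1.49% against 2.50%. MEIS was 12.5% against 13.7% in all windows and 13.5% against 15.3% within the band. The E-box CAGCTG also turned round, with 20.3% against 18.7% in all windows and 23.3% against 25.5% within the band. AP-1 (TGANTCA) went from 6.25% against 6.79% to 6.65% against 6.29%. PITX/OTX (TAATCC) went from 5.36% against 6.01% to 5.20% against 4.62%. Sites of 1 cluster share a neighbourhood and all share both libraries, so these shares carry no test.

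**Figure D5:**
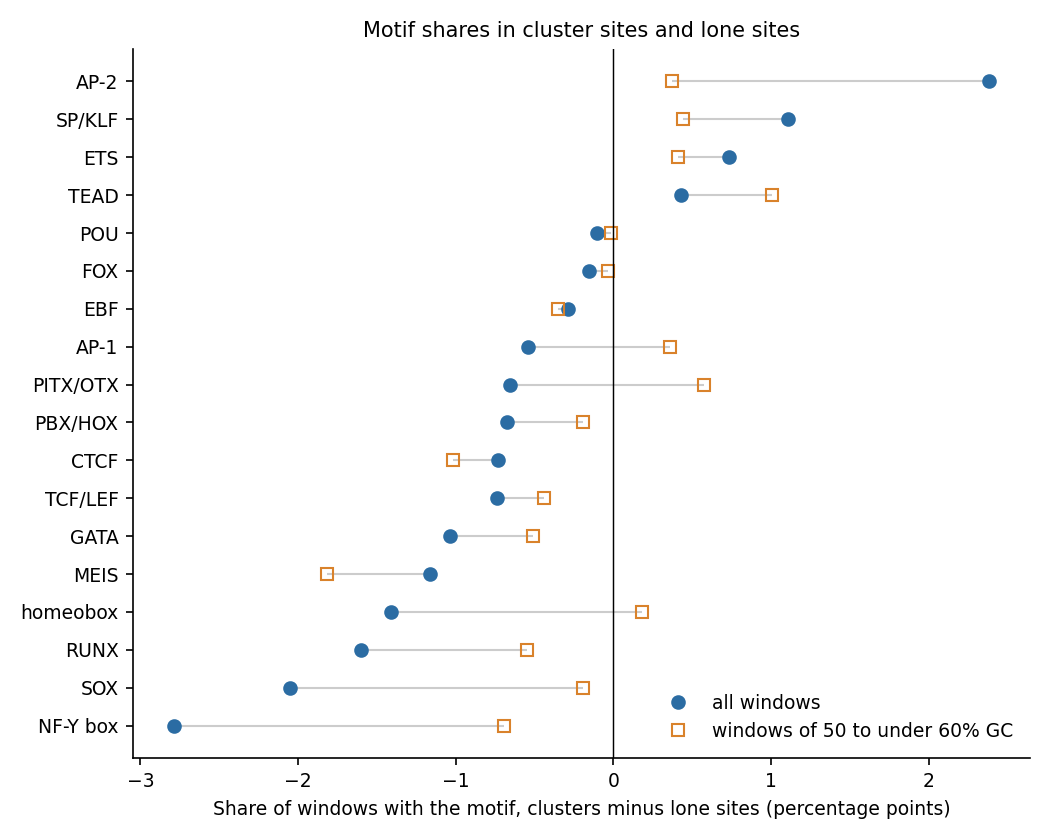
Share of 150 bp windows holding each motif in clusters minus that in lone sites, in percentage points, for all windows (filled circles) and for windows of 50 to under 60% GC (open squares), for motifs in at least 1% of cluster sites, with E-boxes and the CG dinucleotide left out. AP-2 and SOX move towards 0 within the band, and CTCF and MEIS move further below it.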

How the data were processed

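DNase-seq was analysed in 2 replicates of embryonic facial prominence. Per the labels, coordinates are mm10. Per the description deposited with the files, peaks and hotspots were derived from each replicate's own filtered alignments. The deposited peak score is a whole number from 1 to 150 with no stated normalization, used to rank peaks within a list. The deposited hotspot value is a −log10 q-value by the authors' format and was not used to select regions. The sources used here do not name the aligner, caller, thresholds or depth, and the number of regions called can move with depth.

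Regions on chromosomes 1 to 19, X and Y were kept, repeated coordinates once, which left 304233 and 217980 peaks. Peaks overlapping a peak of the other replicate by at least 1 bp were merged into 177440 sites. Sites over 1000 bp from each start site of GENCODE M21 basic were distal (140271), and were chained over gaps of at most 5000 bp. The chaining was checked on simulated data. Nearest genes were taken from the cluster's middle to the nearest protein-coding start site. Enhancers, tRNA genes and sequences came from RefSeq GRCm38.p6. Motifs were searched in 150 bp windows (1 window with an unread base was left out). Of the listed gene symbols, 2 (Ctgf and Cyr61) were not matched.

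The clusters, gene lists and motifs were chosen with earlier results of these data known. Named are the 20 clusters with most sites, the 10 with the highest cover, the 10 with most sites per kb, the 5 farthest, the 5 with the largest cover difference in each direction, the 5 holding the highest-ranking sites, the 20 genes with most clusters and up to 3 genes of each list. A few of these are not reported here. Other names were picked with values in view. Alternatives changed the overlap, score, list length, region type, start site distance, gap, number of sites or replicate. Analyses used python 3.11.15 with numpy 2.4.6, pandas 2.3.3 and matplotlib 3.10.9.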

Additional observations from a re-analysis of the deposited data

How the results depend on the processing

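Counts followed the choices that define a cluster. The number of clusters was 1449, and it was 459 with the upper 50% of each list by score, 584 with gaps of at most 3000 bp, 4204 with gaps of at most 10000 bp and 427 with at least 8 sites. Nearest genes numbered 1223 and under these settings 411, 522, 3097 and 388, and listed genes 140 and then 62, 72, 248 and 54, with 89 when shared hotspots replaced shared peaks. Using the peaks of 1 replicate alone gave 2595 to 6845 clusters, 2023 to 4146 nearest genes, 186 to 291 listed genes, 11.9 to 22.0% of distal sites in clusters, median spans of 10.35 to 11.39 kb, median cover of 18.8 to 21.5% for replicate 1 and 10.3 to 19.3% for replicate 2, CTCF shares of 0.867 to 1.16% and AP-2 shares of 6.35 to 6.93%.

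Gaps of at most 10000 bp put 24.5% of distal sites in clusters, with a median span of 22.33 kb, cover of 13.5% and 10.2%, a CTCF share of 1.62% and an AP-2 share of 6.88%. Gaps of at most 3000 bp gave a span of 6.81 kb and cover of 38.9% and 32.7%. With at least 8 sites the span was 14.19 kb and cover in replicate 1 was 26.8%, and with shared hotspots they were 13.11 kb and 21.7%. With the stronger peaks, cover in replicate 1 was 30.7%, the CTCF share 1.59% and the AP-2 share 8.98%. Other settings, namely 75 bp overlap, lists of equal length and a start site distance over 2000 bp, left 1153 to 1240 clusters. Settings chosen after seeing the data (the comprehensive start sites, tRNA genes as start sites, autosomes only) left 1271 to 1435. No paired analysis was possible because there is 1 group and no test.

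Depth is unknown for both libraries, so cover and the number of sites cannot be set against it.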
